A study of Mus musculus with 12 samples.

Results

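Transcripts of 7 enzymes and enzyme partners of eicosanoid synthesis and breakdown, *Alox5*, *Alox5ap*, *Ltc4s*, *Ptgs1*, *Hpgds*, *Ptges* and *Hpgd*, were followed in gut epithelial cells of WT and Chd8L+/- mice. They were taken by gene symbol from a table of 14244 gene rows, and all 7 had a row. Poly(A) RNA was sequenced from 5 WT and 7 Chd8L+/- animals, male littermates of the C57BL/6 strain aged 8 weeks, with 1 library per mouse. Chd8L+/- mice carry, in every tissue and not in the gut alone, a heterozygous deletion of exons of the large isoform of *Chd8*, which encodes a chromatin remodeller. The epithelial cells were loosened from intestinal sections and were not sorted, so every value is a mean over all cells of the preparation.

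Eicosanoids are lipid mediators made from arachidonic acid, which phospholipases A2 release from membranes. In the leukotriene branch, 5-lipoxygenase (*Alox5*) and the protein that presents arachidonic acid to it (*Alox5ap*) make leukotriene A4, and leukotriene C4 synthase (*Ltc4s*) joins this to glutathione to give the first cysteinyl leukotriene. In the prostaglandin branch, cyclooxygenase 1 (*Ptgs1*) makes prostaglandin H2, which hematopoietic prostaglandin D synthase (*Hpgds*) turns into prostaglandin D2 and microsomal prostaglandin E synthase 1 (*Ptges*) into prostaglandin E2, and 15-hydroxyprostaglandin dehydrogenase (*Hpgd*) inactivates prostaglandins. Tuft cells, rare chemosensory cells of the gut epithelium, are known for producing cysteinyl leukotrienes and prostaglandin D2 during type 2 immune responses. Mast cells and other myeloid cells also carry several of these enzymes.

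The libraries held between 15691662 and 20761315 reads counted on genes. WT replicate 2 stood apart from the other WT libraries: on the first principal component, which held 39.7% of the variance, it lay at 41, among Chd8L+/- libraries at 0.26 to 42.7, while the other WT libraries lay between -67.5 and -26.2. The comparisons of the enzymes are therefore also given without it, and those of other genes and lists where its absence changes a call. It was set aside after its values were seen, for lying among the Chd8L+/- libraries. Leaving it out therefore tends to widen the gap between the groups, and p-values without it are descriptive only. *Chd8* itself was higher in the libraries labelled Chd8L+/-, at 1084 to 1483 normalized counts against 823 to 1050 in WT (limma log2 fold change 0.44, SE 0.10, adjusted p = 0.121, and 0.48, adjusted p = 0.00676, without WT replicate 2), which is not the direction of a lost allele. Its value counts the whole gene and does not separate the deleted exons, so it does not check the genotype labels, and groups are named here as the labels name them. The epithelial character of the cells was carried by all 8 epithelial markers, which summed to 167480 to 296770 normalized counts in WT and 161860 to 289410 in Chd8L+/- libraries.

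The 7 genes lie on 5 chromosomes of GRCm38. *Alox5* (chr6:116410077-116461178) and *Hpgds* (chr6:65117293-65144908) lie on the minus strand of chromosome 6, *Ptgs1* (chr2:36230426-36252272) on the plus strand and *Ptges* (chr2:30889471-30929863) on the minus strand of chromosome 2. *Alox5ap* (chr5:149264767-149288153) and *Hpgd* (chr8:56294585-56321043) lie on plus strands, and *Ltc4s* (chr11:50236461-50238616) on a minus strand. Exons of *Alox5ap*, *Ltc4s* and *Ptgs1* overlap those of the opposite-strand genes Gm19719, Gm26542 and Gm43621. The use of strand in counting is not given in the sources used here, so reads of these 3 pairs may not be separated.

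RefSeq promoter sequences on GRCm38.p6 were available for 6 of the 7 genes, all but *Alox5ap*. Those of 4 genes are shown because they span the 2 branches and the breakdown step, and because *Alox5*, *Ptgs1* and *Hpgds* varied by 8.64-fold to 26.0-fold from the lowest to the highest library and *Hpgd* by 3.30-fold. Each is read 5′ to 3′ on the gene's own strand and ends a short way into the first exon. Capitals mark matches on either strand to 4 motifs: the octamer ATGCAAAT bound by POU factors, the family of the tuft cell regulator POU2F3, the GC box GGGCGG, the HNF4-type motif CAAAGTCCA and the TATA box TATAAA.
Alox5, chr6:116461159-116461428, minus strand: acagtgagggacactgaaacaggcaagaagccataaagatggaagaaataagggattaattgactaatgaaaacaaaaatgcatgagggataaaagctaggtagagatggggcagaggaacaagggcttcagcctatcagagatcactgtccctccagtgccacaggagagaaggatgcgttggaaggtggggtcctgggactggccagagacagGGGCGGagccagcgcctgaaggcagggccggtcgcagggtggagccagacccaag
Ptgs1, chr2:36230176-36230445, plus strand: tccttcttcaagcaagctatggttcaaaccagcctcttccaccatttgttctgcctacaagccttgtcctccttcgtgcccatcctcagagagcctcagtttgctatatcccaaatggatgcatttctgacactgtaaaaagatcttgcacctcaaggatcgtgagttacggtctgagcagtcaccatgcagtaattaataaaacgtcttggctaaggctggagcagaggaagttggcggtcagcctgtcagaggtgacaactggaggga
Hpgds, chr6:65144889-65144980, minus strand: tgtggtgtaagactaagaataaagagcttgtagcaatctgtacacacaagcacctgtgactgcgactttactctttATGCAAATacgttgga
Hpgd, chr8:56294302-56294571, plus strand: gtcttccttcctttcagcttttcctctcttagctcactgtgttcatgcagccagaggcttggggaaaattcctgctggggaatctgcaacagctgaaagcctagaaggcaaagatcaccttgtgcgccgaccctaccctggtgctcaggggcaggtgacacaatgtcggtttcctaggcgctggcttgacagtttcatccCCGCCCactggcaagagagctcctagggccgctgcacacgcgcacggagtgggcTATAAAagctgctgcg
The octamer matched in *Hpgds* alone, at chr6:65144897-65144904. This lies 174 bases before the RefSeq start and 4 bases after the GENCODE start, so it falls in a first exon by one annotation and upstream by the other. A GC box stood 35 bases before the start of *Alox5*, 50 bases before the RefSeq start of *Hpgd* and at 2 places in *Ptges*. The TATA box matched in *Hpgd* alone, beginning 4 bases after its RefSeq start and 29 bases before its GENCODE start. No motif matched in *Ptgs1* or *Ltc4s*, and the HNF4-type motif matched in none of the 6 windows. The search covered the whole RefSeq window of each gene, 300 bases, of which the printed stretch is a part. Among 32851 such windows of all genes, 1.74% held the octamer, 35.7% the GC box, 0.475% the HNF4-type motif and 13.6% the TATA box.

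Per kilobase of exon, *Hpgd* was the most abundant of the 7 transcripts in WT, with a median of 2242 normalized counts per kb. *Alox5ap* followed with 1248 normalized counts per kb, and the WT ranges of these 2 genes overlapped. *Alox5*, *Ltc4s* and *Ptgs1* came next, at medians of 276, 265 and 198 normalized counts per kb, and their WT ranges overlapped. *Hpgds* was lower, at 51.3 normalized counts per kb, and *Ptges* was at the edge of detection, at 0.957. In Chd8L+/- libraries the median of *Hpgd* was 1499, of *Alox5ap* 221, of *Alox5* 75.6, of *Ltc4s* 67.3, of *Ptgs1* 60.2, of *Hpgds* 16.6 and of *Ptges* 1.36 normalized counts per kb, the same order as in WT. The WT and Chd8L+/- ranges of each gene overlapped once WT replicate 2 was counted.

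The question of the genotype comparison is whether the enzymes differ between WT and Chd8L+/- gut epithelium. All 6 members that passed the filter on low values (a mean of at least 10) had a lower mean in Chd8L+/- libraries, the 5 enzymes *Alox5*, *Alox5ap*, *Ltc4s*, *Ptgs1* and *Hpgds* at 20.9% to 41.8% of WT and *Hpgd* at 67.1%. *Ptges*, the 7th, was below the filter. None of the 6 passed an adjusted p of 0.05 in the fit over all libraries (limma on log2(normalized count + 1), Benjamini-Hochberg over 12808 genes), where 0.0234% of all genes tested were called. All 6 were lower at an unadjusted p of 0.05 or less, against 11.8% of all genes tested. Without WT replicate 2 all 6 fell at an adjusted p of 0.05 or less, against 13.6% of all 12807 genes then tested. With DESeq2 on the recovered reads and all libraries, 4 of the 6 fell, *Ltc4s*, *Ptgs1*, *Alox5ap* and *Hpgds*, with DESeq2 adjusted p-values of 0.00995 to 0.0372, against 4.61% of genes. With a block by the first letter of the library name, whose meaning the labels do not give, 5 fell, all but *Hpgd*, at limma adjusted p-values of 0.0434 to 0.0481, against 2.15% of genes. The number after that letter, which some WT and Chd8L+/- libraries share, was not used as a block, and its meaning is not given either. The labels do not name the litter of each mouse, so no p-value here is known to account for litter.

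**Figure D1:**
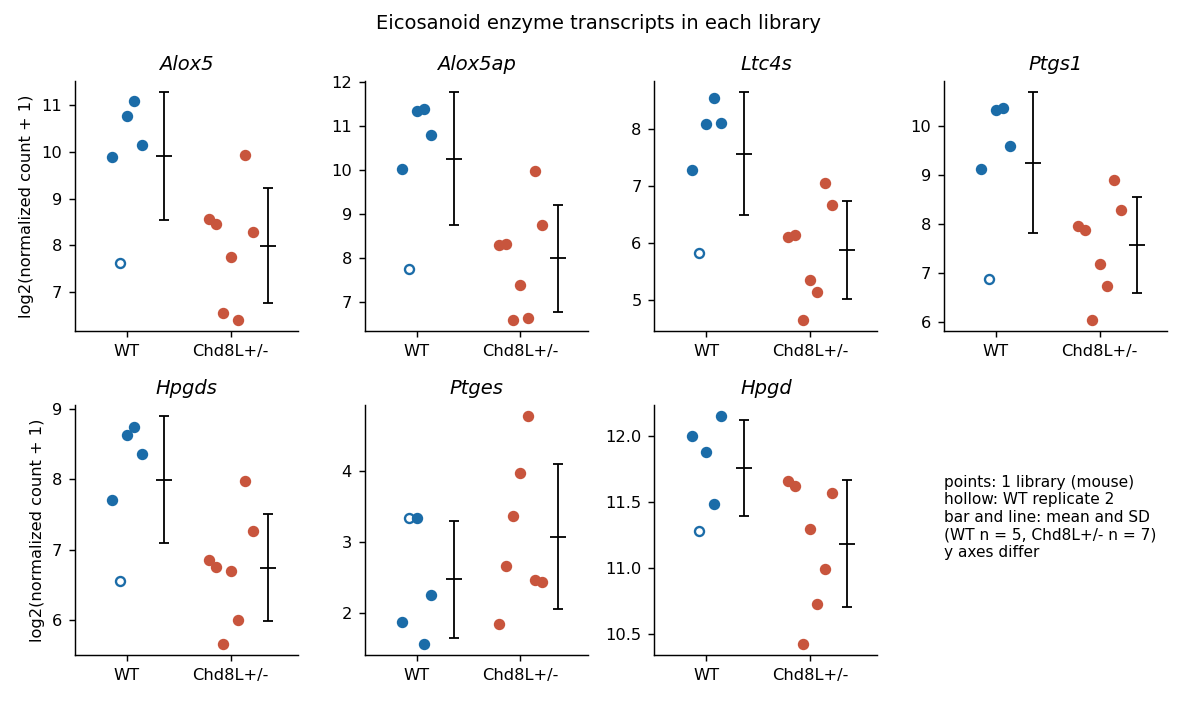
Level of each enzyme in each library as log2(normalized count + 1), with 1 point per mouse, WT in blue (n = 5) and Chd8L+/- in red (n = 7), the hollow point WT replicate 2, and the bar and line the mean and SD. For the 6 tested genes, all but *Ptges*, every Chd8L+/- library lies below the WT median, and WT replicate 2 lies among the Chd8L+/- libraries.

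*Alox5*, which catalyses the first step of leukotriene synthesis, stood in WT replicates 1 to 5 at 951, 195, 1754, 2182 and 1135 normalized counts. In Chd8L+/- libraries it ranged from 83.8 to 979 with a median of 311. The 4 WT libraries other than replicate 2 were high, 6 of the 7 Chd8L+/- libraries lay below all 4 of them, and Chd8L+/- replicate 6 alone reached into their range. The limma log2 fold change was -1.91 (SE 0.64, adjusted p = 0.127), and a two-sided exact permutation test of the same difference gave p = 0.0354. Without WT replicate 2 the log2 fold change was -2.48 (SE 0.55, adjusted p = 0.00767).

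*Alox5ap*, without which 5-lipoxygenase makes little leukotriene in intact cells, had the lowest fold change of the members. Its WT values were 1034, 215, 2600, 2651 and 1772 normalized counts, and its Chd8L+/- values ranged from 96.2 to 1002 with a median of 314. The groups overlapped through WT replicate 2 alone. The limma log2 fold change was -2.26 (SE 0.67, adjusted p = 0.121; exact permutation test p = 0.0227), and without WT replicate 2 it was -2.88 (SE 0.55, adjusted p = 0.00462). In that comparison the exact permutation p was 0.00303, the smallest that 4 against 7 libraries allow. Leaving out the only overlapping WT library fixed this p in advance.

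*Ltc4s*, the enzyme that commits the pathway to cysteinyl leukotrienes, showed the same split of the libraries. Its WT values were 154, 55.8, 269, 370 and 273 normalized counts, and its Chd8L+/- values ranged from 24.3 to 132 with a median of 68.2. All 7 Chd8L+/- libraries lay below the 4 WT libraries other than replicate 2. The limma log2 fold change was -1.69 (SE 0.48, adjusted p = 0.121; exact permutation test p = 0.0189), and without WT replicate 2 it was -2.12 (SE 0.41, adjusted p = 0.00494).

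In the prostaglandin branch, *Ptgs1* stood in WT at 555, 117, 1281, 1325 and 770 normalized counts. In Chd8L+/- libraries it ranged from 65.4 to 478 with a median of 234, again below every WT library but replicate 2. The limma log2 fold change was -1.68 (SE 0.59, adjusted p = 0.130; exact permutation test p = 0.0391), and -2.28 (SE 0.46, adjusted p = 0.00544) without WT replicate 2. *Hpgds*, which draws on the prostaglandin H2 of cyclooxygenases, had the smallest difference of the 5 enzymes that varied together. Its WT values were 207, 92.3, 395, 427 and 330 normalized counts, and its Chd8L+/- values ranged from 49.5 to 250 with a median of 107, with Chd8L+/- replicate 6 above WT replicate 1. The limma log2 fold change was -1.26 (SE 0.42, adjusted p = 0.127; exact permutation test p = 0.0328), and -1.62 (SE 0.37, adjusted p = 0.00841) without WT replicate 2.

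Without WT replicate 2, the groups did not overlap for 3 of the 6 tested members, *Alox5ap*, *Ltc4s* and *Ptgs1*, where 7.72% of all genes were lower with no overlap. With all libraries no member was free of overlap, and 0.273% of all genes were lower without it. Every Chd8L+/- library lay below the WT median for all 6 tested members, as for 15.7% of all genes. Chd8L+/- replicate 6 was the highest Chd8L+/- library for each of *Alox5*, *Alox5ap*, *Ltc4s*, *Ptgs1* and *Hpgds*, and replicate 3 or 5 the lowest.

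*Hpgd*, which breaks prostaglandins down, was high in every library. Its WT values were 4112, 2492, 3773, 2874 and 4557 normalized counts, and its Chd8L+/- values ranged from 1380 to 3234 with a median of 2523. The groups overlapped, and only 3 Chd8L+/- libraries lay below the lowest WT library, replicate 2. The limma log2 fold change was -0.57 (SE 0.23, adjusted p = 0.160; exact permutation test p = 0.0518), and -0.69 (SE 0.24, adjusted p = 0.0428) without WT replicate 2.

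*Ptges* rested on 2 to 25 reads per library. Its WT values were 2.7, 9.1, 9.1, 2.0 and 3.8 normalized counts, and its Chd8L+/- values ranged from 2.6 to 26.2 with a median of 5.3. The groups overlapped, with 3 Chd8L+/- libraries above the highest WT library. The log2 difference was 0.60 (SE 0.54, adjusted p = 0.524 in the limma fit without a filter, exact permutation test p = 0.295). Its 95% confidence interval ran from -0.55 to 1.75, so neither a rise nor a fall was shown. The interval reached further above 0 than below it, and the gene rests on few reads. The difference was 0.82 without WT replicate 2 (exact permutation p = 0.194).

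**Figure D2:**
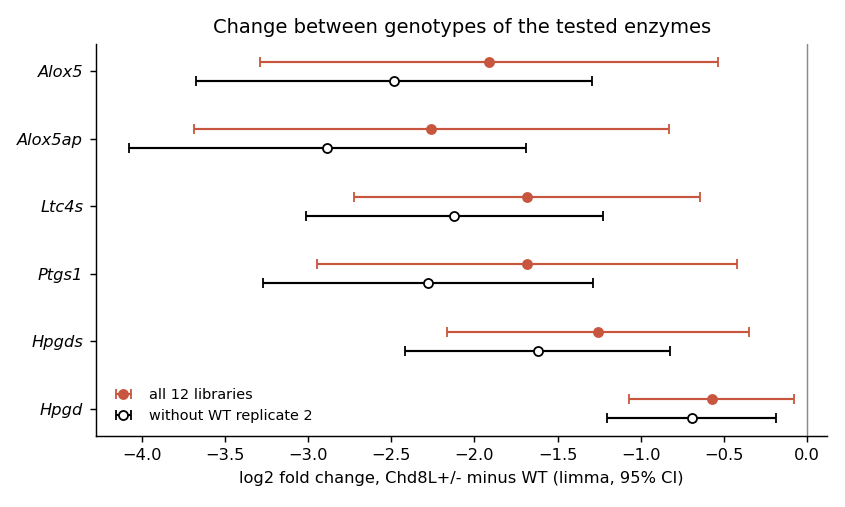
Log2 fold change of the 6 tested enzymes, Chd8L+/- minus WT, from limma, with 95% confidence intervals, for all 12 libraries (filled) and without WT replicate 2 (hollow). All 6 intervals lie below 0 in both fits, before adjustment over genes, and *Hpgd*, at -0.57, lies nearest to 0.

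The members were set against 17 tuft cell markers to see whether the name tuft cell enzymes holds for all of them. In bulk RNA, fewer tuft cells and less RNA per tuft cell cannot be told apart. All 16 tested markers were lower in Chd8L+/- libraries, 15 of them at an unadjusted p of 0.05 or less and 0 at an adjusted one (limma), with a median log2 fold change of -1.77 against 0.01 over all genes, and 14 of 16 fell without WT replicate 2. The markers summed to 3189 to 28126 normalized counts in WT, with the lowest in replicate 2, and to 1889 to 12099 in Chd8L+/- libraries. As for the 5 enzymes, the highest Chd8L+/- library was replicate 6. *Pou2f3*, the factor that specifies tuft cells, had a log2 fold change of -1.98 (SE 0.58, limma adjusted p = 0.121). *Dclk1*, a kinase used to stain tuft cells, had one of -1.37 (SE 0.48, limma adjusted p = 0.133). The taste channel *Trpm5* had one of -1.65 (SE 0.58, limma adjusted p = 0.130) and the cytokine *Il25* one of -1.77 (SE 0.79, limma adjusted p = 0.190). Without WT replicate 2, *Pou2f3*, *Dclk1* and *Trpm5* fell at limma adjusted p-values of 0.00668, 0.00821 and 0.00556, while *Il25* did not pass (0.0623).

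**Figure D3:**
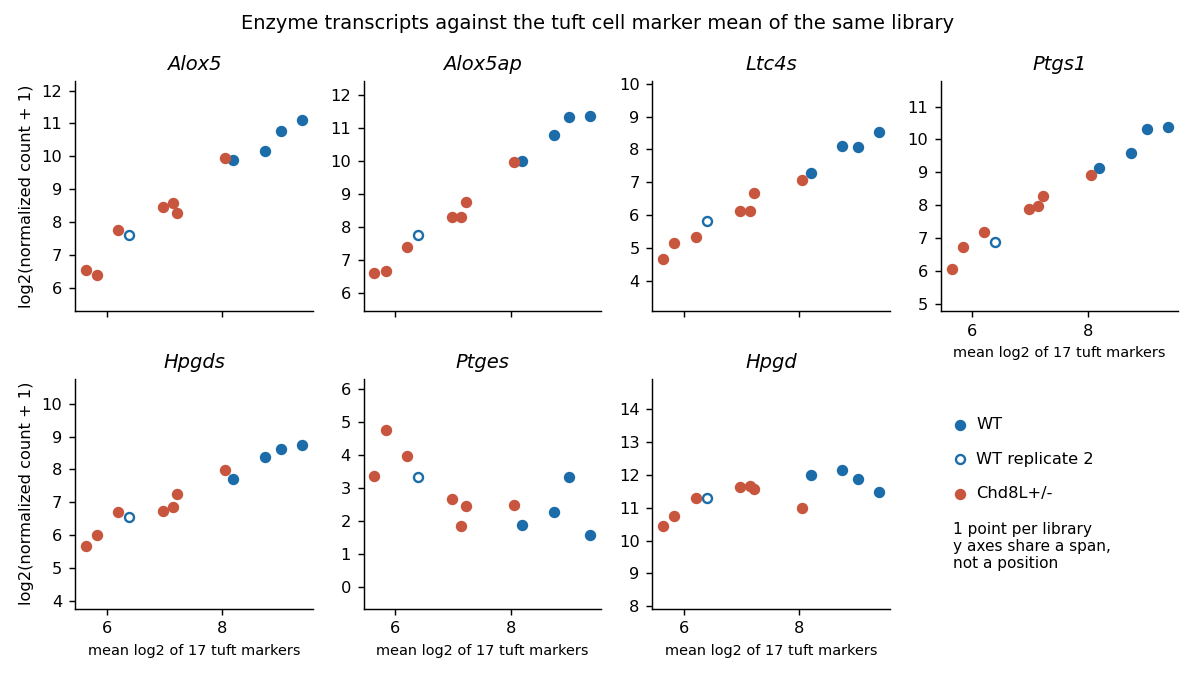
Level of each enzyme, as log2(normalized count + 1), against the mean log2 level of 17 tuft cell markers in the same library, with WT in blue, Chd8L+/- in red and WT replicate 2 hollow. All panels share the same vertical span, and *Alox5*, *Alox5ap*, *Ltc4s*, *Ptgs1* and *Hpgds* rise with the marker mean across the 12 libraries, while *Hpgd* varies less than the markers and *Ptges* is highest in libraries where the markers are low.

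Over the 12 libraries the SD of log2 *Ltc4s* was 1.25, and the SD of its difference from the tuft marker mean was 0.17. The SD of that difference was 0.24 for *Ptgs1*, 0.33 for *Hpgds*, 0.39 for *Alox5* and 0.48 for *Alox5ap*. For these 5 genes it was larger against the mean of 12 enterocyte markers, at 0.81 to 1.43, and against that of 8 epithelial markers, at 0.91 to 1.59, so they lay closest to the tuft markers of the 3 lists. The measure also depends on how much a list and a gene vary: the SD of the list mean itself was 1.27 for the tuft markers, 0.52 for the enterocyte markers and 0.27 for the epithelial markers. *Hpgd*, with an SD of 0.51, varied less than the tuft markers, and the SD of its difference was 0.98 from them and 0.28 from the enterocyte markers. Like the 5 enzymes, it was lowest in Chd8L+/- replicates 3 and 5. For *Ptges*, with an SD of 0.95, the SD of the difference was 2.03 from the tuft, 1.33 from the enterocyte and 1.10 from the epithelial markers. Each of these exceeded the SD of *Ptges* alone, so it followed none of the 3 lists. By this description *Hpgd* and *Ptges* lay further from the tuft than from the enterocyte markers, and the other 5 the reverse.

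Relative to the mean of the 17 tuft markers in the same library, *Alox5ap* was lower in Chd8L+/- mice. WT libraries lay at 1.91 ± 0.36 above that mean on the log2 scale (SD, n = 5) and Chd8L+/- libraries at 1.27 ± 0.37 (SD, n = 7), which differ by -0.63 (two-sided exact permutation test, p = 0.0189, not adjusted for the 7 members tested). In 5 of the 7 Chd8L+/- libraries it lay below the lowest WT library, and Chd8L+/- replicate 6, at 1.92, was the highest of its group. Without WT replicate 2 the difference was -0.77 (exact permutation p = 0.00909), relative to *Dclk1* alone it was -0.89 (exact permutation p = 0.0139), and without WT replicate 3 it was -0.53 (exact permutation p = 0.0515). The value went with the tuft marker level of the library: WT replicate 2, with a marker mean of 6.40, lay at 1.36, among the Chd8L+/- libraries, and Chd8L+/- replicate 6, with a marker mean of 8.05, lay among WT. *Alox5ap* also varied more over the 12 libraries (SD 1.72) than the marker mean did. The part of the marker level in this difference was not tested. Its size also depends on the markers chosen. Log2 fold changes of the tested markers ran from -2.23 for *Gnat3* to -0.18 for *Tas1r3*, against -2.26 for *Alox5ap*. *Matk* at -2.19 and *Sh2d6* at -2.03 lay nearer to *Alox5ap* than *Dclk1* did at -1.37. A loss of *Alox5ap* beyond that of every tuft cell transcript is therefore not shown.

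The other enzymes that varied with the markers differed less between genotypes once set against them. *Ltc4s* and *Ptgs1* each differed by -0.06 (exact permutation p = 0.554 and 0.712), within SDs of 0.17 to 0.29 in each group, and by -0.0066 and -0.17 without WT replicate 2 (exact permutation p = 0.952 and 0.282). *Alox5* differed by -0.29 (exact permutation p = 0.222), by -0.37 without WT replicate 2 (exact permutation p = 0.155), and by -0.54 relative to *Dclk1* alone (exact permutation p = 0.0290). *Hpgds* was higher relative to the markers by 0.37 (exact permutation p = 0.0492), with WT at -0.35 ± 0.30 (SD, n = 5) and Chd8L+/- at 0.02 ± 0.26 (SD, n = 7). That p passed 0.05 in 3 of 14 alternatives, among them the one without WT replicate 2 (0.49, exact permutation p = 0.00909), and relative to *Dclk1* alone the difference was 0.11 (exact permutation p = 0.557). *Hpgd* was higher relative to the markers by 1.05 (exact permutation p = 0.0669) and *Ptges* by 2.22 (exact permutation p = 0.0606), and passed 0.05 without WT replicate 2 (1.42, exact permutation p = 0.0121, and 2.93, exact permutation p = 0.0182). The marker mean was itself lower in Chd8L+/- libraries, so a gene that does not follow it comes out higher by this measure. The differences of *Hpgd* and *Ptges* therefore do not show that either gene rose.

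**Figure D4:**
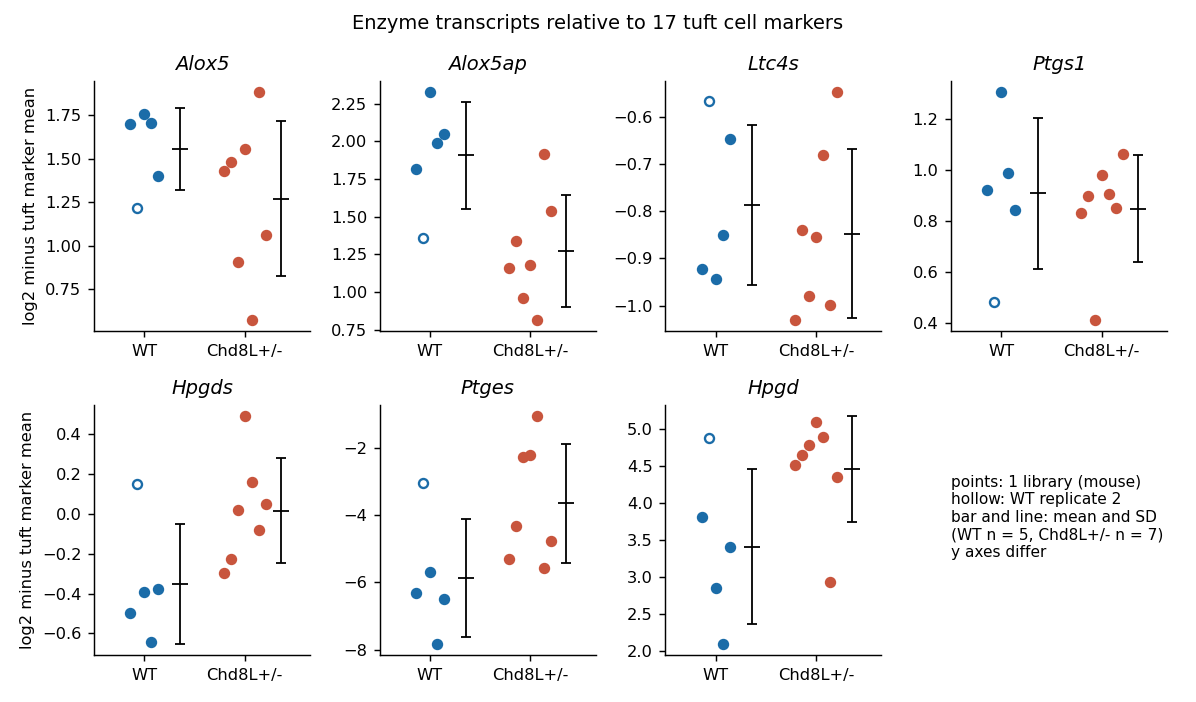
Log2 level of each enzyme minus the mean log2 level of 17 tuft cell markers in the same library, with 1 point per mouse, WT in blue (n = 5), Chd8L+/- in red (n = 7), WT replicate 2 hollow, and mean and SD as bar and line. For *Alox5ap* 5 of the 7 Chd8L+/- libraries lie below all WT libraries, and for *Ltc4s* and *Ptgs1* the group means lie 0.06 apart.

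Ratios between the enzymes were taken per kb of exon within each library. *Alox5ap* stood at 3.14 to 4.52 times the level of *Alox5* per kb in WT and at 2.23 to 4.03 times in Chd8L+/- libraries. The ratio of *Alox5ap* to *Hpgds* per kb was 10.5 to 29.8 in WT, lowest in replicate 2, and 7.16 to 18.1 in Chd8L+/- libraries. The breakdown enzyme *Hpgd* stood at 5.01 to 49.3 times the level of *Ptgs1* per kb in WT, highest in replicate 2, and at 9.84 to 48.7 times in Chd8L+/- libraries. All 3 ratios overlapped between genotypes.

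Several of these enzymes are also made by mast cells and other myeloid cells. Of 12 mast cell markers, 6 had a row among the 14244, and the defining *Cpa3*, *Cma1*, *Tpsab1*, *Ms4a2*, *Fcer1a* and *Gata2* had none. The 6 summed to 643 to 1672 normalized counts in WT, with the lowest in replicate 2, and to 446 to 1154 in Chd8L+/- libraries, most of it *Kit*, which is not particular to mast cells. Of the 4 tested, 2 were lower and 2 higher in Chd8L+/- libraries, with *Kit* alone at an unadjusted p of 0.05 or less (log2 fold change -0.84, limma adjusted p = 0.134), and it fell without WT replicate 2 (-1.07, adjusted p = 0.0150). Of the mast cell proteases, *Mcpt1* ranged from 37.1 to 396 and *Mcpt2* from 6.94 to 138 normalized counts, while *Mcpt4* and *Tpsb2* reached at most 15.5 and 11.9. The log2 fold change was -0.50 for *Mcpt1* (limma adjusted p = 0.525) and 0.03 for *Mcpt2* (limma adjusted p = 0.979). The part of mast cells in the enzyme levels was not tested. Of 12 myeloid markers, 11 were higher in Chd8L+/- libraries, 5 of them at an unadjusted p of 0.05 or less and 0 at an adjusted one (limma), with a median log2 fold change of 0.81, the opposite direction to the enzymes. They summed to 3107 to 4357 normalized counts in WT, with the highest in replicate 2, and to 2981 to 5274 in Chd8L+/- libraries, and without WT replicate 2, 6 rose and 1 fell. All 7 tested stromal markers were also higher, 3 at an unadjusted p of 0.05 or less and 0 at an adjusted one, with a median log2 fold change of 1.76, and summed to 159 to 608 normalized counts in WT, highest in replicate 2, and 232 to 1776 in Chd8L+/- libraries, and 3 rose without that library. The part of these cells in the enzyme levels was not tested.

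For each enzyme, the genes whose log2 level kept the steadiest distance from it over the 12 libraries were sought among genes with a mean of at least 10. For *Alox5* they included *Avil*, an actin-binding protein of tuft cells, and *Ccdc129*, with an SD of the log2 difference of 0.17 and 0.25. For *Alox5ap* they were the tetraspanin *Tspan6*, *Sh2d6* and the kinase *Matk* (0.17 to 0.19). For *Ltc4s* they were *Ccnj*, the keratin *Krt23* and *Lrmp* (0.22 to 0.26). For *Ptgs1* they were *Gprc5c*, the calcium pump *Atp2b2* and *Mn1* (0.17 to 0.24), and for *Hpgds* they were *Cacna2d2*, *Cib2* and *Cd24a* (0.22 to 0.24). All of these named genes had a negative log2 fold change, which was fixed by choosing them for likeness over libraries of both genotypes. Exons of *Cib2* overlap those of the opposite-strand tuft cell marker *Sh2d7*, so reads of this pair may not be separated. *Hpgd* kept company with other transcripts, the peroxisomal hydroxylase *Phyh*, the gut hormone *Guca2b* and *Immp2l* (0.18 to 0.22). No gene followed *Ptges* closely, the nearest being *Gm21992*, *Mrvi1* and *Lgals1*, with an SD of the log2 difference of 0.50 to 0.52. Among the members, *Ltc4s* and *Ptgs1* were nearest to each other (SD of the log2 difference 0.30), with *Alox5* and *Alox5ap* (0.32) and *Ltc4s* and *Hpgds* (0.32) close behind.

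**Figure D5:**
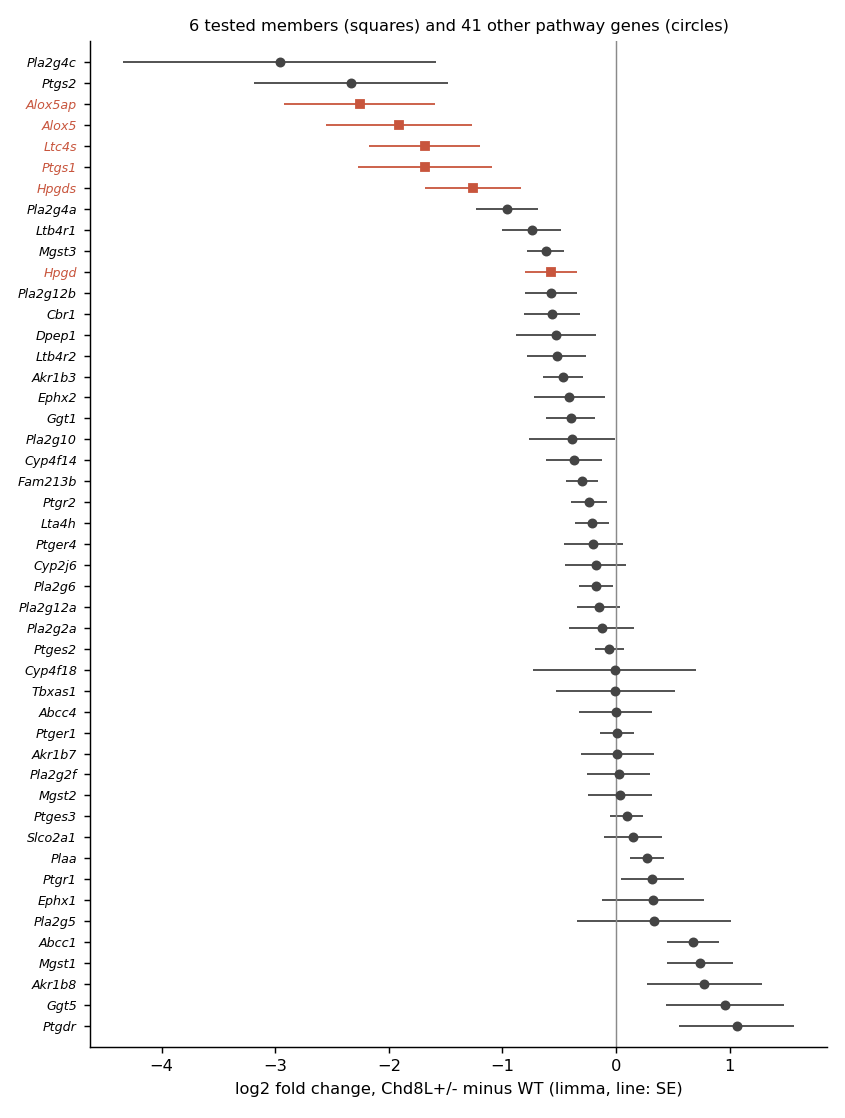
Log2 fold change, Chd8L+/- minus WT, with its SE from limma, of the 6 tested enzymes (red squares) and of 41 other tested genes of the eicosanoid pathway (dark circles), ordered by fold change. Of the 41 other genes 26 lie below 0 and 15 above, with a median of -0.15.

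The rest of the eicosanoid pathway did not move as one. Of 62 further genes of the pathway, 49 had a row and 41 were tested. Of these 26 were lower and 15 higher in Chd8L+/- libraries, 8 lower and 2 higher at an unadjusted p of 0.05 or less and 0 at an adjusted one (limma), with a median log2 fold change of -0.15 against 0.01 over all genes. Over all genes, 11.8% were lower and 12.5% higher at an unadjusted p of 0.05 or less. Without WT replicate 2, 11 fell and 3 rose, where 27.6% of all genes were called in one direction or the other.

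Of the phospholipases that release arachidonic acid, *Pla2g4a* stood at 245 to 512 normalized counts in WT and at 126 to 365 in Chd8L+/- libraries (limma log2 fold change -0.96, SE 0.27, adjusted p = 0.121). It fell without WT replicate 2 (-1.12, adjusted p = 0.0114). *Pla2g4c*, named after its values were seen, varied widely, from 1609 to 89026 normalized counts in WT and from 134 to 37297 in Chd8L+/- libraries (-2.96, SE 1.38, limma adjusted p = 0.205), and fell without WT replicate 2 (-3.94, adjusted p = 0.0406). *Plaa*, the phospholipase A2 activating protein, had a log2 fold change of 0.27 (SE 0.15, limma adjusted p = 0.264) and did not pass without WT replicate 2 (0.37, adjusted p = 0.0646). *Ptgs2*, the inducible cyclooxygenase, was the scarcer of the 2 cyclooxygenases per kb, with medians of 21.8 normalized counts per kb in WT and 3.49 in Chd8L+/- libraries. Its log2 fold change was -2.33 (SE 0.86, limma adjusted p = 0.139), and it fell without WT replicate 2 (-3.08, adjusted p = 0.0112).

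Among the enzymes that act on prostaglandins, the other prostaglandin E synthases differed between genotypes by less than 1 SE. *Ptges2* had a log2 fold change of -0.06 (SE 0.13) and *Ptges3* of 0.10 (SE 0.14), both with limma adjusted p-values above 0.7. They were also far more abundant than *Ptges*, with WT medians of 118 and 479 normalized counts per kb. The carbonyl reductase *Cbr1*, which acts on prostaglandin E2, had a log2 fold change of -0.56 (SE 0.25, limma adjusted p = 0.186), and the prostaglandin uptake carrier *Slco2a1* one of 0.15 (SE 0.25, limma adjusted p = 0.741). *Ptgds*, the other prostaglandin D synthase, had no row in the table.

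Among the leukotriene enzymes outside the 7, *Lta4h*, which sends leukotriene A4 to leukotriene B4, had a log2 fold change of -0.21 (SE 0.15, limma adjusted p = 0.391). The membrane glutathione transferases related to *Ltc4s* differed among themselves. *Mgst3* stood at 3736 to 7288 normalized counts in WT and at 2750 to 3898 in Chd8L+/- libraries (-0.62, SE 0.16, limma adjusted p = 0.121), and fell without WT replicate 2 (-0.74, adjusted p = 0.00536). *Mgst1* was higher (0.74, SE 0.29, limma adjusted p = 0.154) and rose without WT replicate 2 (0.95, adjusted p = 0.0242). *Mgst2* had a log2 fold change of 0.04 (SE 0.28, limma adjusted p = 0.950). *Abcc1*, which exports leukotriene C4, was also higher (0.68, SE 0.23, limma adjusted p = 0.127) and rose without WT replicate 2 (0.82, adjusted p = 0.0196).

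Receptors differed widely in level. WT medians were 724 and 371 normalized counts for the prostaglandin E2 receptors *Ptger4* and *Ptger1*, and 325 and 287 for the leukotriene B4 receptors *Ltb4r2* and *Ltb4r1*. Exons of *Ptger4* and *Ptger1* overlap those of opposite-strand genes, so their reads may not be separated. *Ptger2*, *Ptger3*, *Ptgdr*, *Tbxa2r* and *Cysltr2* had WT medians of 10.1 or less. The leukotriene B4 receptor *Ltb4r1* had a log2 fold change of -0.74 (SE 0.26, limma adjusted p = 0.130) and fell without WT replicate 2 (-0.98, adjusted p = 0.00741). The prostaglandin D2 receptor *Ptgdr* reached at most 39.9 normalized counts in any library, with a log2 fold change of 1.06 (SE 0.50, limma adjusted p = 0.213), and rose without WT replicate 2 (1.44, adjusted p = 0.0397). The cysteinyl leukotriene receptor *Cysltr1* had no row in the table.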

How the data were processed

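Poly(A) RNA of gut epithelial cells was sequenced by the authors as 75-base single-end reads, mapped to mm10 with Tophat2 and run through the DESeq2 pipeline. The counting program, annotation, strand setting and gene filter are not given in the sources used here. The authors deposited normalized signal values, which are read counts over a size factor of each library. Dividing them by the value of a single read gave whole reads for 100% of entries (within 0.01), that is 15691662 to 20761315 per library. 0 columns belonged to other samples.

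Genotypes were compared with limma 3.58.1 in R 4.3.3 (lmFit, eBayes with trend) on log2(value + 1), genes with a mean of at least 10, all 12 libraries, no block, Benjamini-Hochberg over all genes tested, threshold 0.05. Fold changes are Chd8L+/- minus WT and are understated for low genes. Single genes were also tested with a two-sided exact permutation test, whose smallest p is 0.00126 (0.00303 without WT replicate 2). Where members were set against tuft cell markers, the mean log2 level of the list was subtracted within each library.

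The members, the lists (eicosanoid pathway and tuft, mast, myeloid, neutrophil, eosinophil, group 2 innate lymphoid, stromal, enterocyte and epithelial markers) and the tests were chosen with earlier results of these data known. Genes named are all members, *Chd8*, 12 fixed pathway genes where tested and the 4 with the smallest p in each direction, 4 tuft cell markers, and per member the 3 genes with the smallest SD of the log2 difference, of which 1 is not reported here. Positions and exon lengths come from GENCODE M21 on GRCm38, which need not be the authors' annotation. Alternatives were pseudocounts of 0.5 and 5, no filter, a minimum of 10 in each library, quantiles set equal across libraries, DESeq2 1.42.0 or edgeR 4.0.16 fitted to the recovered reads, a block by replicate number, a block by the first letter of the library name, *Dclk1* alone in place of the tuft marker list, values without a log, and each library left out. The steps were tested on simulated reads with the same spread set for all genes and no outlying library. Their power and error under the spread of these libraries were not tested.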

Additional observations from a re-analysis of the deposited data

Results flagged for a closer look

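In 64 groups of 4 to 10 libraries, the highest or lowest library's gap to its neighbour was compared with the range of its group, and 2 groups stood out, where chance gives about 3.2. Relative to the tuft cell marker mean, *Ptgs1* in Chd8L+/- replicate 3 lay at 0.412 on the log2 scale, below the other Chd8L+/- libraries at 0.831 to 1.06. Relative to the same mean, *Hpgd* in Chd8L+/- replicate 6 lay at 2.94, below the other Chd8L+/- libraries at 4.35 to 5.10. That library had the highest tuft marker mean of its group.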

How the results depend on the processing

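All 6 tested members kept a negative log2 fold change in each alternative fit between genotypes: the pseudocounts, filters, quantiles, tools, blocks and left-out libraries. In contrast, the number of calls moved: of all genes, 3 were called with all libraries and limma, 811 with DESeq2, 5 with edgeR, 451 with the library letter as a block and 0 with the replicate block. Of the members, 0 were called with limma or edgeR, 4 with DESeq2 and 5 with the library letter as a block. Leaving out 1 library at a time gave 0 to 3534 genes and 0 to 6 members. The upper ends came from leaving out WT replicate 2, and the other 11 libraries gave at most 8 genes and 0 members. The causes of these differences were not tested. At an unadjusted p of 0.05 or less, 5 or 6 members were lower under each alternative. The replicate numbers did not pair the samples: deviations from group means of same-numbered libraries correlated at -0.344 to 0.189, and under the replicate block 5 members were lower at an unadjusted p of 0.05 or less. Relative to the tuft markers, the difference of *Ptgs1* ran from -0.17 without WT replicate 2 to 0.040 without WT replicate 3 and was 0.014 without Chd8L+/- replicate 3, so its sign was not stable, and that of *Alox5ap* ran from -0.77 to -0.53 as single libraries were left out. *Ptges* is limited by its few reads, 2 to 25 per library.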

Other observations

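Other immune cell markers that bear on eicosanoid-producing cells were few. Of 7 markers of group 2 innate lymphoid cells, the cells that answer tuft cell IL-25, 4 had a row, and 3 of these were lower in Chd8L+/- libraries (1 at an unadjusted p of 0.05 or less, median log2 fold change -0.52). *Il1rl1*, the IL-33 receptor, named after its values were seen, ranged from 13.2 to 2867 normalized counts in WT, lowest in replicate 2, and from 2.80 to 181 in Chd8L+/- libraries (limma log2 fold change -3.06, adjusted p = 0.168, and -3.95, adjusted p = 0.0298, without WT replicate 2). The other tested markers were *Areg* (-0.59, limma adjusted p = 0.223), *Gata3* (-0.45, limma adjusted p = 0.581) and *Rora* (0.35, limma adjusted p = 0.519). *Il13*, *Il5* and *Klrg1* had no row. *Gata3* reached at most 18.7 normalized counts in WT, so *Il1rl1* is not read here as a measure of these cells. The part of group 2 innate lymphoid cells in its level was not tested. Of 7 eosinophil markers 2 had a row, and *Epx*, *Prg2*, *Ear1*, *Ear6* and *Ccr3* had none. Only *Siglecf* was tested (-2.06, limma adjusted p = 0.125, and -2.67, adjusted p = 0.00632, without WT replicate 2). Like the summed tuft cell markers, *Siglecf* was lowest among WT libraries in replicate 2, so it is not read here as a measure of eosinophils. The part of eosinophils in its level was not tested. Of 8 neutrophil markers 2 had a row, and only *Ly6g* was tested (0.37, limma adjusted p = 0.850). Of 12 enterocyte markers 11 were lower, of which 3 had an unadjusted p of 0.05 or less and 0 an adjusted one, and the median log2 fold change was -0.51, and 4 fell without WT replicate 2. Of 8 epithelial markers 6 were lower (1 with an unadjusted p of 0.05 or less), and the median was -0.20, and 1 fell and 1 rose without WT replicate 2.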
